A study of Homo sapiens with 19 samples.

Results

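Matrix metalloproteinases and their tissue inhibitors were followed in MDA-MB-231, an established triple-negative human breast cancer line with mesenchymal features. The set was chosen by gene symbol and holds 10 genes of the 30710 gene identifiers in the deposited tables: MMP1, MMP3, MMP7, MMP9, MMP10, MMP13, MMP14, TIMP1, TIMP2 and TIMP3. All but MMP7 are listed in each of the 3 tables, and MMP7 is not listed in the culture table. RNA was sequenced from 19 libraries. In the culture table, adherent cells grown in DMEM with fetal calf serum (n = 2) stand beside spheres kept floating for 16 h (n = 2) or 5 d (n = 2). The sphere medium was DMEM/F12 to which B27, FGF and EGF had been added. In the other tables, cells titled spheres were reverse transfected and kept 48 h in the sphere medium. One of these tables holds a control siRNA, siNC, and siRNAs 1 and 2 against SCIRT, a long noncoding RNA (n = 3 each), and the other holds its own siNC and an siRNA against EZH2, the catalytic subunit of Polycomb repressive complex PRC2 (n = 2 each). All libraries come from 1 cell line. Whether replicates came from separate cultures is not stated, so a p-value covers only the library-to-library spread, which may be technical. The tests used here take much of that spread from the other genes of a table, and limma with siEZH2 takes all of it for a typical gene. Attachment, medium, serum and growth factors all change together between adherent cells and spheres, and their effects cannot be told apart.

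Matrix metalloproteinases are zinc-dependent enzymes that are made as inactive proforms and cut proteins of the extracellular matrix. Interstitial collagenases (MMP1, MMP13) cut fibrillar collagen, stromelysins (MMP3, MMP10) cut proteoglycans and can activate other proforms, matrilysin (MMP7) and gelatinase B (MMP9) act on further matrix and surface proteins, and MMP14 is anchored in the cell membrane. TIMP1, TIMP2 and TIMP3 are secreted inhibitors that block the active site. TIMP1 is a weak inhibitor of MMP14, TIMP2 inhibits MMP14 and also serves as its partner in the activation of proMMP2, and TIMP3 stays bound to the matrix and also inhibits several ADAM proteases.

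Promoter sequences were looked up for all members, and the RefSeq table (GRCh38.p14) held 5 of them, for MMP7, MMP10, MMP14, TIMP1 and TIMP3. Each window covers 250 bases before to 50 bases after the annotated start. The 4 below are shown because these genes changed in the comparisons that follow. Capitals mark every match to 3 motifs on either strand, and no matches overlap here. The AP-1 motif was searched as TGANTCA. The TATA box was searched as TATAAA, and the SP1 motif as GGGCGG, which reads as its complement when it lies on the other strand. MMP10 lies at chr11:102780579-102780878 on the minus strand, MMP14 at chr14:22836335-22836634, TIMP1 at chrX:47582186-47582485 and TIMP3 at chr22:32801455-32801754, these 3 on the plus strand.
MMP10: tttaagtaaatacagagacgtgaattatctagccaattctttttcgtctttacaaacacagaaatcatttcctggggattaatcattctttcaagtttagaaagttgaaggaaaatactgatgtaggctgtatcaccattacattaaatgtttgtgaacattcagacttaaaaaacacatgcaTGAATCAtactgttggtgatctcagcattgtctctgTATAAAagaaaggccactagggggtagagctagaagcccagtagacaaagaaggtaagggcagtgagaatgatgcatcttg
MMP14: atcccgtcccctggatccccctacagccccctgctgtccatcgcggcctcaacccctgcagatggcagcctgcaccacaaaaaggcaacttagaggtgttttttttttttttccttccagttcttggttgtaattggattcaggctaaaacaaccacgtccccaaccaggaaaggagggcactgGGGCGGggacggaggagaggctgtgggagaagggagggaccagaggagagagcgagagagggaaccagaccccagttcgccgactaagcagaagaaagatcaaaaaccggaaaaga
TIMP1: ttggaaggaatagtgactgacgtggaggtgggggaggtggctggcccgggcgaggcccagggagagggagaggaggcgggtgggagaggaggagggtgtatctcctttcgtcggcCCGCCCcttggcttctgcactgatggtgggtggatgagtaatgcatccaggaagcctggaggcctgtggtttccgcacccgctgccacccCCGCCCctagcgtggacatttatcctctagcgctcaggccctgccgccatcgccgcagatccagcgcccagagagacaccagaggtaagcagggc
TIMP3: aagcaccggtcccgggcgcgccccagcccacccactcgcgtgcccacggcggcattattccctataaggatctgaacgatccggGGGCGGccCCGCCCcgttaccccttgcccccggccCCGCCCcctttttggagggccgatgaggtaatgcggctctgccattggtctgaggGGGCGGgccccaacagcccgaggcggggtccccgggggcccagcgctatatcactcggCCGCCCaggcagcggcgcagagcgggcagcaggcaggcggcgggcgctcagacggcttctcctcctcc
The stromelysin window has the AP-1 letters TGAATCA starting 67 bases before the start and TATAAA 31 bases before it. The matrilysin window, not printed, carries TGAGTCA at the same distance of 67 bases and TATAAA 30 bases before its start. MMP14 holds 1 SP1 match, TIMP1 holds 2 and TIMP3 holds 5, and none of these 3 windows has a match to the AP-1 or TATA letters. Over the 35116 promoters of the table, 7.709% hold the AP-1 letters, 11.53% hold TATAAA and 44.95% hold the SP1 letters. The GC content was 35.7% for MMP7, 36.3% for MMP10, 55.0% for MMP14, 65% for TIMP1 and 72.7% for TIMP3, against a median of 58.7% over all promoters. These matches describe letters in a window, and binding was not measured.

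Depth ran from 6104222 to 14781941 recovered reads in the culture libraries, from 38635418 to 62218847 in the siSCIRT libraries and from 27989577 to 38955312 in the siEZH2 libraries. The knockdowns were checked on their targets, and limma gave SCIRT -1.13 ± 0.14 (log2, SE) for the mean of both siSCIRT siRNAs (adjusted p = 8.49e-05) and EZH2 -0.92 ± 0.15 for siEZH2 (adjusted p = 6.28e-08). EZH2 itself also fell with siSCIRT, by 0.51 on the log2 scale (SE 0.07, adjusted p = 0.000143). Summed levels of the 6 markers of the line (VIM, CD44, AXL, CAV1, MSN, ANXA1) were 4339.5 to 8970.3 RPM (reads per 1000000 library reads) in the 19 libraries. The summed levels of the fibroblast list (6 genes) were 4.17 to 13.1 RPM, those of the leukocyte list (6 genes) 2.38 to 19.6 and those of the endothelial list (5 genes) 5.96 to 35.8. Fibroblast markers summed to 8.93 to 11.095 RPM in adherent cells and 4.17 to 6.81 at 16 h, and endothelial markers, almost all of them KDR reads, to 19.9 to 20.6 and 28.1 to 35.8. Leukocyte markers, most of them CD14 reads, summed to 13.9 to 16.7 with siNC and 19.2 to 19.6 with siSCIRT 1. With siEZH2 the endothelial sum was 5.96 to 5.97 against 7.61 to 8.34 with siNC. Of the defining markers PTPRC had 0 to 24 reads a library and PDGFRA 0 to 9, and CD3E and PECAM1 had no row in the tables used here. Genes that are low in this line (epithelial and hormone receptor markers, 5 of 6 listed in the culture table) summed to 38.97 to 38.98 RPM in adherent cells, 10.1 to 13.6 at 16 h and 33.1 to 34.6 at 5 d. The 3 of them that could be tested, EPCAM, ERBB3 and GATA3, were lower at 16 h than in adherent cells, by 1.10 to 1.87 on the log2 scale. The part of these markers in the results was not tested. Reads from mitochondrial genes were 6.83% to 6.89% of the total in adherent cells, 8.55% to 8.56% at 16 h and 9.65% to 9.74% at 5 d, so this share moved with the culture groups. It was 6.113% to 6.597% with siNC in the siSCIRT table, 5.758% to 6.111% with siSCIRT 1 and 5.538% to 6.111% with siSCIRT 2, lower than in every siNC library. Its part in the results was not tested.

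Levels of different genes were set side by side as normalized counts per kilobase of annotated exon (GENCODE v29). In adherent cells the order was TIMP3 at 2746.5, TIMP2 at 2307, TIMP1 at 1814, MMP14 at 964 and MMP1 at 594, with MMP3 at 3.59 and the other listed members lower. At 16 h TIMP1 stood first at 23516, followed by MMP14 at 3389.5, MMP1 at 1447, TIMP2 at 992 and TIMP3 at 401. At 5 d TIMP1 was still first at 3559, then came MMP14 at 1876, TIMP3 at 1030.3, TIMP2 at 928 and MMP1 at 244. Libraries of neighbours among these 5 genes did not overlap in any culture group. In the siNC libraries of the siSCIRT table MMP1 was first at 53711 per kilobase and overlapped TIMP1 at 30776, followed by MMP14 at 21916, TIMP3 at 8184, TIMP2 at 3264, MMP10 at 506, MMP3 at 151, MMP13 at 27.5, MMP9 at 17.5 and MMP7 at 11.3, with overlap among the last 3. In the siNC libraries of the siEZH2 table the order began with TIMP1 at 27239, MMP14 at 22600 and MMP1 at 11840, and MMP13 at 17.7 overlapped MMP3 at 14.3. The tables were normalized separately, so these orders hold within a table.

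The first comparison asks how the genes differ between adherent cells and spheres after 16 h and 5 d. MMP14, the membrane-anchored enzyme, had normalized counts of 4359 and 4249 in the adherent libraries, 15136 and 15125 at 16 h and 8360.0 and 8392 at 5 d. It was highest at 16 h and stayed above the adherent level at 5 d, with no overlap between groups. Its log2 fold change was 1.81 ± 0.02, adjusted p = 1.88e-38 (limma, SE), at 16 h and 0.96 ± 0.02, adjusted p = 5.61e-29, at 5 d. The collagenase MMP1 had normalized counts of 1198 and 1144 in adherent cells, 2835 and 2865 at 16 h and 508 and 454 at 5 d. MMP1 therefore rose at 16 h and was below the adherent level at 5 d. The limma log2 fold changes were 1.28 ± 0.06, adjusted p = 4.76e-20, at 16 h and -1.28 ± 0.06, adjusted p = 7.62e-20, at 5 d, and -2.57 ± 0.06, adjusted p = 1.96e-29, between the sphere times. In bulk RNA, fewer cells of a type and less RNA per cell cannot be told apart.

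TIMP1 moved most among the members between adherent cells and 16 h. Its normalized counts were 2766 and 2824 in adherent cells, 36135 and 36342 at 16 h and 5317 and 5652 at 5 d. The 16 h mean lay about 13-fold above the adherent mean on the fitted scale (log2 fold change 3.70 ± 0.03, adjusted p = 1.38e-47 with limma), and the 5 d libraries remained above it (0.97 ± 0.03, adjusted p = 5.34e-28). TIMP2, the partner of MMP14, had 12990.4 and 12997 in adherent cells, 5579 and 5602 at 16 h and 5185 and 5264 at 5 d. It fell by 1.22 on the log2 scale at 16 h (SE 0.03, limma adjusted p = 5.52e-32) and by 1.31 at 5 d (SE 0.03, adjusted p = 8.71e-33). The matrix-bound TIMP3 had 12578 and 12706 in adherent cells, 1845 and 1848 at 16 h and 4849.8 and 4636 at 5 d. TIMP3 fell by 2.77 at 16 h (log2, SE 0.03, limma adjusted p = 6.41e-41) and was still down by 1.41 at 5 d (SE 0.03, adjusted p = 7.74e-31).

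**Figure D1:**
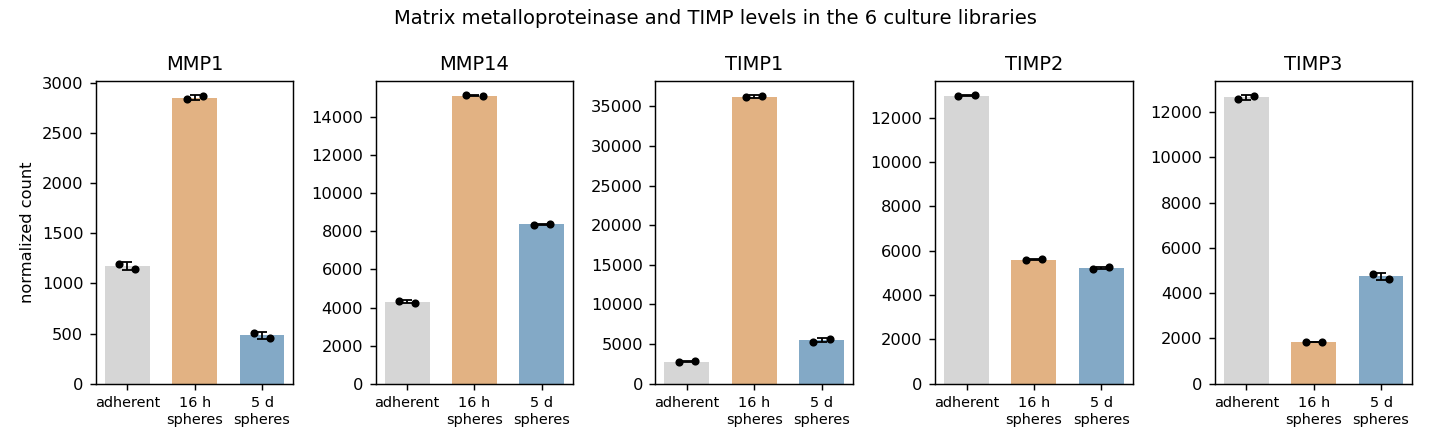
Normalized counts (vertical axis, from 0) of the 5 members that passed the filter, in adherent cells, 16 h spheres and 5 d spheres. Points are libraries, bars the group means and error bars the SD (n = 2); TIMP1 and MMP14 peak at 16 h, MMP1 peaks at 16 h and is lowest at 5 d, and TIMP2 and TIMP3 are highest in adherent cells.

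Counted over the set, 5 of the 9 listed members passed the filter of a mean normalized count of at least 10, and all 5 were called at an adjusted p under 0.05 at 16 h (3 higher, 2 lower), where 53.9% of all genes tested were called (27.4% higher and 26.5% lower). At 5 d against adherent cells the 5 were called as well (2 higher, 3 lower), against 55.2% of all genes (26.3% higher and 28.9% lower). Between 5 d and 16 h spheres all 5 were called (1 higher, 4 lower), against 48.3% (22.8% higher and 25.5% lower). With about 1 gene in 2 called, these counts say little about the set, and the sizes carry more of the description. The median log2 change of the 5 members at 16 h was 1.28, against -0.01 over all genes tested. At 5 d against adherent cells it was -1.28, against -0.02. Both medians are the values of MMP1 itself, so they do not describe a shared movement of the set. Only MMP1 changed direction between these comparisons, while MMP14 and TIMP1 were higher and TIMP2 and TIMP3 lower in both. The 16 h and 5 d comparisons share the adherent libraries.

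Between 16 h and 5 d the members moved back toward the adherent level or past it, apart from TIMP2. TIMP1 fell by 2.72 (log2, SE 0.03, limma adjusted p = 2.26e-42), MMP14 fell by 0.85 (SE 0.02, adjusted p = 2.94e-27) and TIMP3 rose by 1.36 (SE 0.03, adjusted p = 3.42e-30). TIMP2 differed by -0.10 ± 0.03 (adjusted p = 0.00141), which quantile normalization turned to 0.20 (adjusted p = 5.95e-08) and which was not called with eBayes run without the intensity trend and without its robust option (adjusted p = 0.269). No direction between the sphere times is read for TIMP2.

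The make-up of the inhibitor reads changed with the culture. In the adherent libraries TIMP1 gave 9.76% and 9.90% of the reads of the 3 inhibitors, TIMP2 gave 45.8% and 45.6%, and TIMP3 gave 44.4% and 44.5%. At 16 h TIMP1 gave 83.0% in both libraries and TIMP3 4.24% and 4.22%. At 5 d the 3 inhibitors were near even, with TIMP1 at 34.6% and 36.3%, TIMP2 at 33.8% in both and TIMP3 at 31.6% and 29.8%. The summed inhibitor reads were 3134 and 3169.7 RPM in adherent cells, 4054 and 4071 at 16 h and 1651 and 1654 at 5 d. The summed metalloproteinase reads were 616 and 601 RPM in adherent cells, 1674 and 1675 at 16 h and 954 and 941 at 5 d. The log2 ratio of MMP14 reads to those of its partner TIMP2 went from -1.58 and -1.61 in adherent cells to 1.44 and 1.43 at 16 h and 0.69 and 0.67 at 5 d. Read shares weigh longer transcripts more, so the changes between groups are the quantity to read here.

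**Figure D2:**
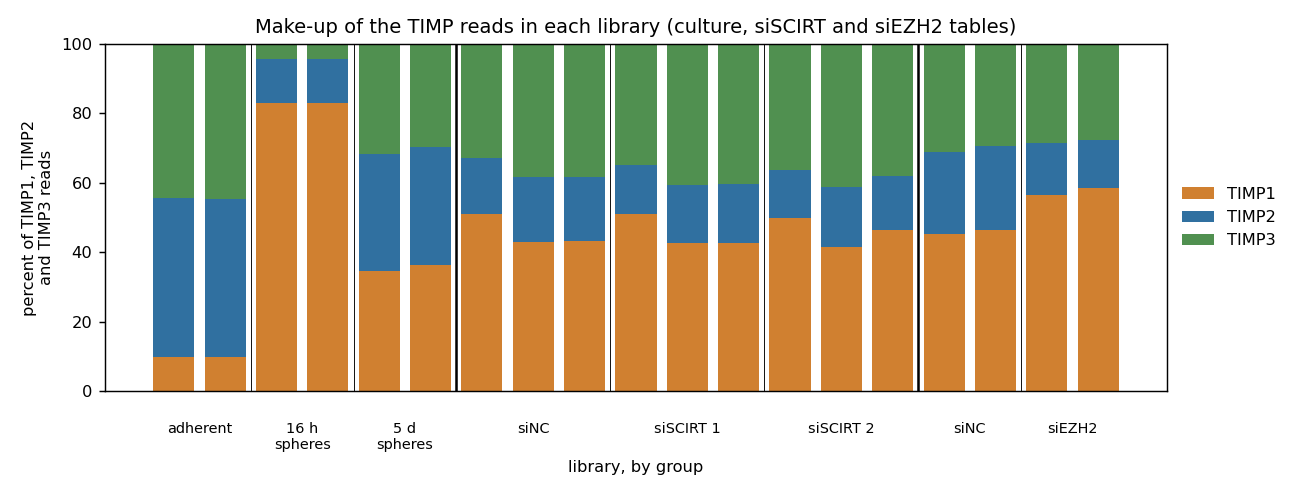
Percent of the summed TIMP1, TIMP2 and TIMP3 reads (vertical axis) given by each inhibitor, 1 bar per library, grouped as labelled under the axis, with the siSCIRT and siEZH2 tables to the right of the first and second thick lines. TIMP1 fills 83.0% of the bar at 16 h against 9.76% and 9.90% in adherent cells, and TIMP2 shrinks with siEZH2 from 23.6% and 24.3% to 15.1% and 14.0%.

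The remaining members were scarcely read in culture and stayed below the filter. The stromelysin MMP3 had 9 and 13 reads in adherent cells, 9 and 14 at 16 h and 2 and 0 at 5 d. Without the filter limma called it lower at 5 d, at -2.25 ± 0.70 against adherent cells (log2, SE, adjusted p = 0.00928) and -2.98 against 16 h (adjusted p = 0.000902), which rests on those few reads. MMP10, the second stromelysin, had 1 and 1 reads in adherent cells, 6 and 2 at 16 h and 1 and 0 at 5 d. The collagenase MMP13 had 4 and 6, then 2 and 1, then 1 and 3 reads, and gelatinase B (MMP9) had 0 to 3 reads in every culture library. Without the filter none of these 3 was called in a culture comparison, and changes of them were not detectable at this depth.

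Lists of related genes, which were written with earlier results of these data known, give the setting of these changes at 16 h. Their counts stand against 27.4% of all genes called higher and 26.5% called lower. In the plasminogen system, whose protease plasmin activates several metalloproteinase proforms, 3 of 5 tested genes rose and 2 fell (median 0.81). The urokinase receptor PLAUR had a log2 change of 1.50 ± 0.06, tissue plasminogen activator PLAT -1.17 ± 0.03 and SERPINE2, an inhibitor of serine proteases, 0.81 ± 0.06 (limma adjusted p from 1.67e-27 to 9.53e-15). So the receptor and SERPINE2 rose while the tissue activator fell. The other gene of the list that fell was urokinase, PLAU, named after its values were seen. Its log2 change was -1.40 ± 0.12 (limma adjusted p = 8.53e-13). Of the other metalloproteinases 4 of 16 could be tested and 2 rose, MMP19 by 0.88 ± 0.28 and MMP15, a membrane-anchored relative of MMP14, by 0.46 ± 0.20 (adjusted p = 0.00823 and 0.0481). Of 4 tested further inhibitors TFPI2 rose by 2.39 ± 0.13, adjusted p = 4.47e-18, and the rest were not called.

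Among the ADAM and ADAMTS proteases, relatives that shed surface proteins or cut proteoglycans, 6 of 10 rose and 3 fell at 16 h (median 0.27). ADAM8 had a log2 change of 2.29 ± 0.05, ADAMTS9 of 3.65 ± 0.11, ADAM9 of 0.85 ± 0.04 and ADAMTS12 of -1.70 ± 0.08 (limma adjusted p from 3.26e-32 to 5.73e-20). All 9 tested matrix substrates rose, with a median of 1.71. Fibronectin (FN1) rose by 5.19 ± 0.02, and the laminin chain LAMB3 rose by 1.23 ± 0.03 (adjusted p from 6.85e-35 to 3.52e-29). Decorin (DCN), a proteoglycan, had 0 and 1 reads in adherent cells, 951 and 818 at 16 h and 8 and 4 at 5 d. Binding partners and activators rose in 4 of 7 tested genes and fell in 2 (median 0.30). The smallest adjusted p-values of the list were those of integrin ITGAV at 1.27 ± 0.08 and the metalloproteinase inducer BSG at 0.30 ± 0.02 (adjusted p = 3e-16 and 8.39e-14), while PCSK5, a protease that activates proforms, rose by 2.52 ± 0.30 and the tight junction protein CLDN1, named after its values were seen, fell by 3.27 (SE 0.53, adjusted p = 2.99e-09 and 1.92e-06).

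Upstream of the metalloproteinases, 8 of 15 transcription factors known to act on their promoters rose and 5 fell at 16 h (median 0.31). The AP-1 subunits FOS and JUNB rose by 2.68 ± 0.16 and 1.39 ± 0.06, while FOSL1, a further AP-1 subunit, fell by 0.77 (SE 0.04) and CEBPB rose by 1.84 ± 0.05 (limma adjusted p from 3.64e-28 to 3.18e-17). Of 8 tested cytokines and growth factors 6 rose and 1 fell (median 1.57), and the EGF-receptor ligands AREG and TGFA stood at 4.76 ± 0.16 and 1.06 ± 0.11, IL6 at 2.27 ± 0.27 and TGFB1 at 0.90 ± 0.05 (adjusted p from 6.6e-25 to 3.77e-09). By 5 d against adherent cells the same list of transcription factors had 6 higher and 7 lower of 15, the substrates 6 higher and 1 lower of 9, and the plasminogen genes 2 higher and 3 lower of 5.

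The second comparison asks how knockdown of SCIRT touched these genes. All 10 members passed the filter in this table, which is deeper. With siSCIRT 1, limma called 1 of 10 members, against 10.2% of all genes (4.63% higher and 5.56% lower), and with siSCIRT 2 it called 2 of 10, against 9.54% (4.49% higher and 5.05% lower). For the mean of both siRNAs 2 of 10 were called, against 14.4% of all genes (6.82% higher and 7.58% lower). All of these member calls were higher than siNC. Shares of 10% and 20% on 10 genes are close to the background. The members called were MMP13 and TIMP3, and the siRNAs share the siNC libraries.

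MMP13, a collagenase, had normalized counts of 97.5, 73.5 and 62.4 in siNC, 153, 106 and 105 in siSCIRT 1 and 141, 153 and 185 with siSCIRT 2. Every siSCIRT library lay above every siNC library. The limma log2 fold change was 0.63 ± 0.21, adjusted p = 0.0678, with siSCIRT 1 and 1.04 ± 0.21, adjusted p = 0.00472, with siSCIRT 2, so only siRNA 2 passed alone, and the mean of both was 0.84 ± 0.18, adjusted p = 0.00528. DESeq2 called siSCIRT 1 as well (adjusted p = 0.0308). TIMP3 had 35096, 39850.1 and 38059 in siNC, 41824, 45742 and 45251 in siSCIRT 1 and 46802, 50289.5 and 45348 with siSCIRT 2. Its siSCIRT libraries again lay above all siNC libraries, by a small amount. The log2 fold change was 0.23 ± 0.07, adjusted p = 0.0492, with siSCIRT 1, 0.33 ± 0.07, adjusted p = 0.00749, with siSCIRT 2 and 0.28 ± 0.06, adjusted p = 0.00584, for their mean. The siSCIRT 1 call was lost in 11 of 17 alternatives, among them edgeR (adjusted p = 0.0536), quantile normalization (adjusted p = 0.0903) and a fit without siNC replicate 1 (adjusted p = 0.211), siNC replicate 3 (0.117), siSCIRT 1 library 2 (0.184), siSCIRT 1 library 3 (0.169) or any 1 siSCIRT 2 library (0.0527 to 0.065). Without siNC replicate 1 siSCIRT 2 stood at 0.28 (adjusted p = 0.0508) and the mean at 0.23 (adjusted p = 0.0552). The MMP13 calls for siSCIRT 2 and for the mean were kept in all 18 and 16 alternatives.

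MMP14 had 103512, 99581 and 90404 in siNC, 107564, 101517 and 96085 in siSCIRT 1 and 121686, 107341 and 120353 with siSCIRT 2. The siSCIRT 2 libraries lay above siNC and the siSCIRT 1 libraries did not. Limma gave 0.25 ± 0.08, adjusted p = 0.0538, for siSCIRT 2, just short of the threshold, and it was called with DESeq2 (adjusted p = 0.011), quantile normalization (adjusted p = 0.00393), no filter, or without siSCIRT 1 library 1 or siSCIRT 2 replicate 2. TIMP1 at 0.20 ± 0.10, adjusted p = 0.224, and TIMP2 at 0.03 ± 0.07, adjusted p = 0.825, were not called for the mean of both siRNAs. With siSCIRT 2 alone TIMP1 stood at 0.26 ± 0.12 (limma adjusted p = 0.2). Its normalized counts were 54426, 44752 and 43101 in siNC and 64174, 50418 and 55190 with siSCIRT 2, with overlap between the groups.

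The 3 members most abundant among the secreted enzymes of the chromosome 11 cluster differed widely between the siNC libraries. MMP1 had 128376, 124056 and 64999.9 in siNC, 97585, 61459 and 64307 in siSCIRT 1 and 87734, 70591 and 76172 with siSCIRT 2. MMP3 had 364, 350.2 and 211, then 288, 190.1 and 243, then 232, 259 and 239.9. MMP10 had 1109, 1053 and 509, then 1173, 720.1 and 759.9, then 1154, 949 and 1051. In each of the 3 genes siNC replicate 3 lay far below the other siNC libraries, and the first siSCIRT 1 library lay above the other siSCIRT 1 libraries. With all libraries MMP1 stood at -0.43 ± 0.24, adjusted p = 0.305, and MMP3 at -0.32 ± 0.17, adjusted p = 0.24, for the mean of both siRNAs. Without siNC replicate 3 MMP1 stood at -0.75 (adjusted p = 0.00888) and MMP3 at -0.57 (adjusted p = 0.0322). These 2 results depend on that 1 library and were not called with it. MMP7 (17.7 to 43.7 in the 9 libraries) and MMP9 (10.4 to 56.0) were low and not called, apart from MMP9 with siSCIRT 1 in the fit without siSCIRT 1 library 1 (-1.45, adjusted p = 0.0191).

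**Figure D3:**
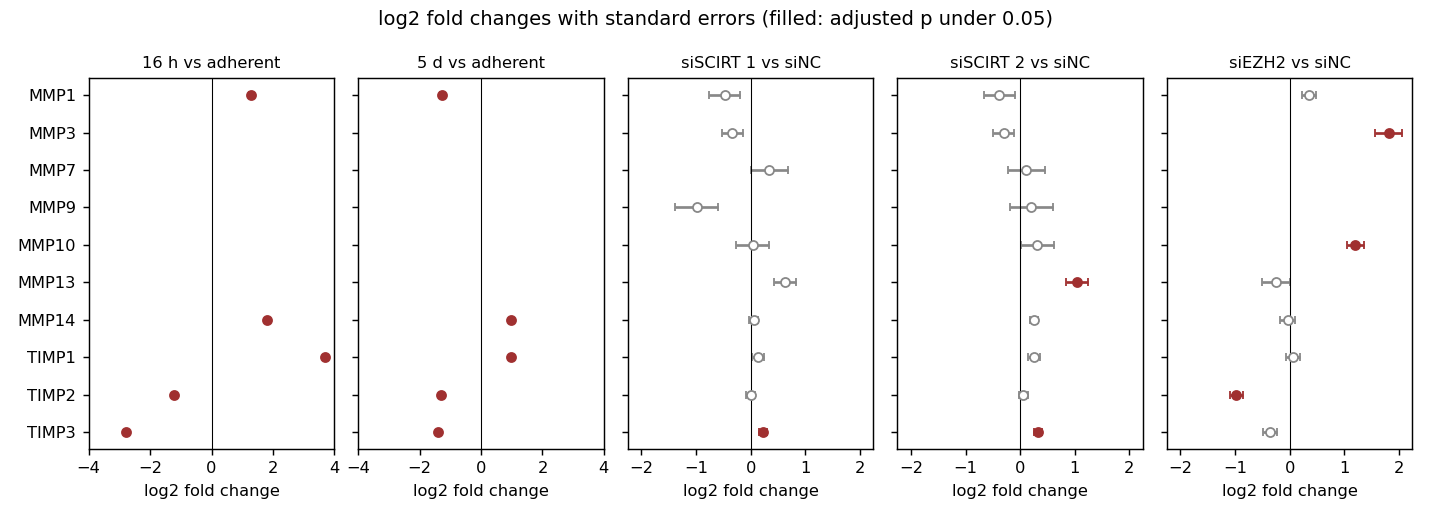
Log2 fold changes (horizontal axis) with standard errors from limma for each member that passed the filter, in 5 comparisons, with a wider axis for culture than for the siRNAs. Filled symbols mark an adjusted p under 0.05, and the filled symbols in the siRNA panels are MMP13 and TIMP3 (siSCIRT) and MMP3, MMP10 and TIMP2 (siEZH2).

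Set directly against each other, the siSCIRT siRNAs gave no called gene with limma (0% of all genes tested and 0 of 10 members), while 451 genes and 2 members had an unadjusted p under 0.05. By the other tools edgeR called 0 genes and DESeq2 called 6. These 2 members were MMP9 (limma unadjusted p = 0.00859) and MMP14 (0.19 ± 0.08, unadjusted p = 0.0238). Among the members the difference of siSCIRT 2 minus siSCIRT 1 was largest for MMP9 (1.19 ± 0.40), followed by MMP13 (0.41 ± 0.21, unadjusted p = 0.0661). By the other tools edgeR called 0 genes and DESeq2 called 6. The limma test does not show that both siRNAs act alike.

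Of the related lists, the mean of both siSCIRT siRNAs gave 2 higher and 2 lower of 7 plasminogen genes. The counts of all lists here stand against 6.82% of all genes called higher and 7.58% called lower. SERPINE2 stood at 0.54 ± 0.07, adjusted p = 0.000172, PLAT at 0.27 ± 0.08, adjusted p = 0.0329, urokinase PLAU at -0.26 ± 0.06, adjusted p = 0.00816, and SERPINB2, an inhibitor of urokinase, at -1.28 ± 0.23, adjusted p = 0.00178. None of the 8 tested other metalloproteinases was called. Of 5 further inhibitors A2M, a broad protease trap, rose by 0.55 ± 0.07, adjusted p = 0.000106. Of 13 substrates 1 rose and 2 fell, with tenascin C (TNC) at 0.53 ± 0.08 and the basement membrane collagens COL4A1 at -0.53 ± 0.06 and COL4A2 at -0.37 ± 0.06. Of 8 cytokines 1 rose and 3 fell, namely TGFB1 at 0.42 ± 0.08, HBEGF at -0.45 ± 0.07, IL6 at -0.52 ± 0.09 and IL1A at -0.54 ± 0.14. Of 15 transcription factors 2 rose and 3 fell, with ETS1 at -0.29 ± 0.06 and RUNX2, a regulator of MMP13, at 0.35 ± 0.08. ADAM8 stood at 0.25 ± 0.07 and ADAM10 at -0.20 ± 0.05.

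The third comparison asks how knockdown of EZH2 touched the genes. Limma called 3 of the 8 members that passed the filter, against 6.84% of all genes (3.9% higher and 2.94% lower). MMP3 had normalized counts of 22.9 and 35.8 with siNC and 107 and 99.5 with siEZH2. Both siEZH2 libraries lay above both controls, with a log2 fold change of 1.81 ± 0.25, adjusted p = 5.28e-11. MMP10 had 185 and 238 with siNC and 457 and 515 with siEZH2. It rose by 1.20 ± 0.15, adjusted p = 1.45e-12, so both stromelysins were higher. TIMP2 had 20197 and 23651 with siNC and 11220.3 and 10992 with siEZH2. It fell by 0.98 on the log2 scale (SE 0.12, adjusted p = 2.3e-12), to 0.51 of the control mean.

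These 3 calls rest on 2 libraries a group and on how the spread is shared between genes. EdgeR called all 3 (adjusted p = 1.14e-10 for MMP3, 5.65e-12 for MMP10 and 1.32e-11 for TIMP2) and so did DESeq2 (7.76e-05, 6.89e-08 and 3.36e-15). Limma with eBayes run without both the intensity trend and the robust option called none of them (0.0652, 0.0652 and 0.0661), and limma without the filter called none either (0.363 each), in both cases with 0 genes called in the whole table, while 2471 and 3413 genes had an unadjusted p under 0.05.

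TIMP3 had 26526 and 28594 with siNC and 21088 and 21685 with siEZH2. Its siEZH2 libraries lay below the controls, but limma gave -0.36 ± 0.13, adjusted p = 0.0573, and it was called by DESeq2 (adjusted p = 0.0083) and with quantile normalization (-0.47, adjusted p = 0.000564). MMP1 had 20027 and 26622 with siNC and 31244 and 27917 with siEZH2. It stood at 0.36 ± 0.13, adjusted p = 0.0685, and was called only without siNC replicate 2 (0.56, adjusted p = 0.00296). MMP14 (-0.04 ± 0.14), TIMP1 (0.07 ± 0.13) and MMP13 (-0.25 ± 0.26) overlapped between the groups and were not called. MMP9 had 7 and 9 reads with siNC and 2 and 6 with siEZH2, and MMP7 had 0 and 0 reads with siNC, which allows up to 3 reads a library, and 2 and 2 with siEZH2, so neither passed the filter. The log2 ratio of MMP14 to TIMP2 reads was 2.21 and 2.197 with siNC and 3.06 and 3.22 with siEZH2.

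**Figure D4:**
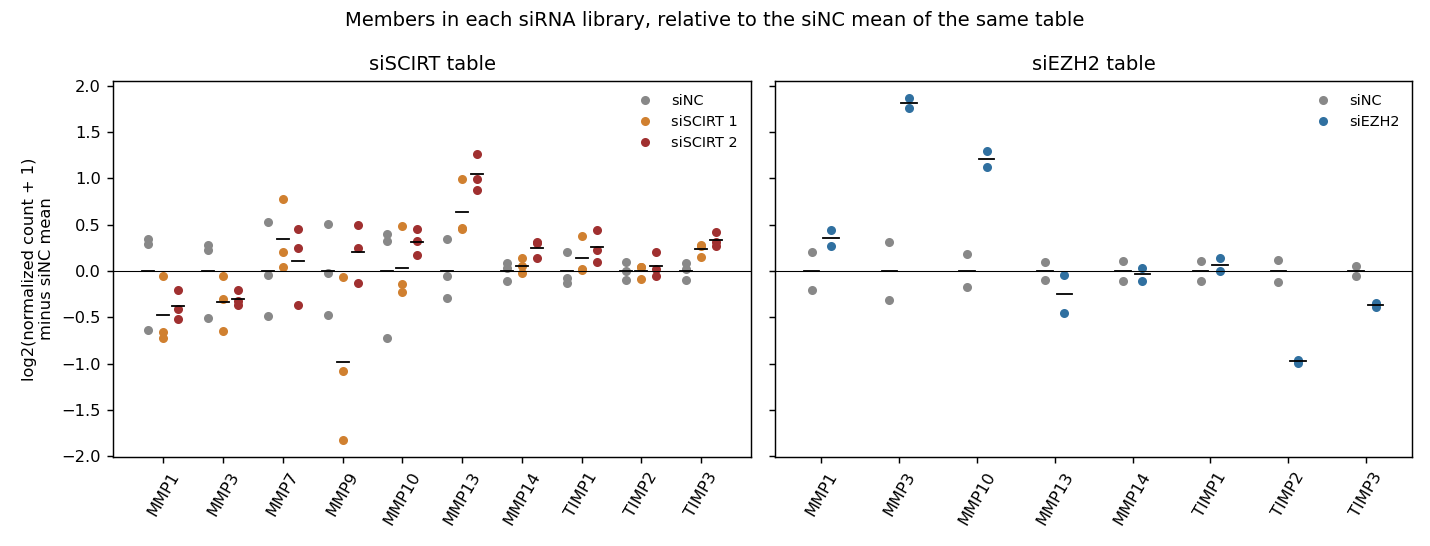
Log2(normalized count + 1) of each member in each siRNA library minus the siNC mean of the same table (vertical axis), for the siSCIRT table (left) and the siEZH2 table (right, without MMP7 and MMP9, which did not pass the filter). Points are libraries and black lines group means; MMP13 and TIMP3 lie above siNC with both siSCIRT siRNAs, MMP3 and MMP10 lie above and TIMP2 below siNC with siEZH2, and siNC replicate 3 is the low siSCIRT-table control for MMP1, MMP3 and MMP10.

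The lists written with earlier results known were counted for siEZH2 too, where 3.9% of all genes were called higher and 2.94% lower. There 3 of 11 substrates rose, COL4A1 (0.64 ± 0.12), TNC (0.58 ± 0.12) and COL4A2 (0.52 ± 0.12), with limma adjusted p from 9.57e-06 to 0.000594. Of 9 cytokines 3 rose, IL1A by 0.64 ± 0.13, adjusted p = 9.9e-05, and, named after their values were seen, IL1B by 0.93 ± 0.13, adjusted p = 1.2e-09, and EREG by 0.40 ± 0.12, adjusted p = 0.0215. Of 15 transcription factors 2 rose and 1 fell, and ETS1 stood at 0.56 ± 0.12, adjusted p = 0.000237. Named after their values were seen, ETS2 stood at 0.64 ± 0.13 (adjusted p = 5.79e-05) and ETV5 at -0.66 ± 0.12 (adjusted p = 5.65e-06). Of 10 activators and binding partners 1 rose and 3 fell. Also named after their values were seen, these were FURIN at 0.37 ± 0.12, LCN2 at -0.91 ± 0.29, PCSK6 at -0.68 ± 0.17 and ITGB3 at -0.49 ± 0.15 (adjusted p from 0.0016 to 0.0331). Of 7 plasminogen genes 1 rose, SERPINB2 by 0.90 ± 0.31, adjusted p = 0.0483. Of 5 further inhibitors A2M rose by 0.57 ± 0.14, adjusted p = 0.00152, and TIMP4, named after its values were seen, fell by 0.74 (SE 0.25, adjusted p = 0.0406). None of 7 other metalloproteinases was called. As with the members, none of these calls held in limma without both the trend and the robust option, or without the filter.

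The last test compared the responses, each against the siNC of its own table, in 1 limma fit over the 13 siRNA libraries. It called 4 of 8 members, against 15% of all genes (8.51% higher and 6.51% lower). The siEZH2 response minus the mean siSCIRT response was 2.13 ± 0.30, adjusted p = 5.49e-05, for MMP3, -1.01 ± 0.12, adjusted p = 7.94e-06, for TIMP2, -0.65 ± 0.11, adjusted p = 0.000403, for TIMP3 and -1.09 ± 0.31, adjusted p = 0.021, for MMP13. MMP3 and TIMP2 were called with siEZH2 and not called with siSCIRT, whereas TIMP3 and MMP13 rose with siSCIRT and stood at -0.36 and -0.25 with siEZH2. The MMP13 difference was no longer called with quantile normalization (-0.92, adjusted p = 0.0548), without siNC replicate 3 of the siSCIRT table (-0.94, adjusted p = 0.06), without siNC replicate 1 of the siEZH2 table (-0.99, adjusted p = 0.101) or without siEZH2 replicate 2 (-0.88, adjusted p = 0.111). MMP10 differed by 1.03 ± 0.44, adjusted p = 0.156, and was called only without siNC replicate 3 of the siSCIRT table (1.39, adjusted p = 0.000822), as was MMP1 (1.10, adjusted p = 0.00894). MMP14 was called only with quantile normalization (-0.39, adjusted p = 0.0142). Of the partners, COL4A1 (1.17 ± 0.11, adjusted p = 2.75e-07), IL1A (1.19 ± 0.22, adjusted p = 0.00169) and SERPINB2 (2.18 ± 0.44, adjusted p = 0.00218) differed between the responses as well.

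Most secreted members stand next to each other on chromosome 11. In the RefSeq order (GRCh38.p14) the cluster holds 9 metalloproteinase genes, MMP7, MMP20, MMP27, MMP8, MMP10, MMP1, MMP3, MMP12 and MMP13, between TMEM123 and DCUN1D5. Of 6 flanking genes 5 rose at 16 h (median 0.45), where 53.9% of all genes tested were called and 27.4% were higher. The apoptosis inhibitor BIRC3 stood at 3.71 ± 0.08, the dynein chain DYNC2H1 at 2.17 ± 0.16 and the Hippo pathway coactivator YAP1 at 0.62 ± 0.04. BIRC2 at 0.29 ± 0.08 and TMEM123 at 0.14 ± 0.04 rose little (limma adjusted p of these 5 from 4.85e-32 to 0.00377). Of the members in the cluster only MMP1 passed the filter in culture, so a shared movement of the region was not tested. For the siSCIRT mean, 1 of 6 flanking genes was called, BIRC3 at -0.20 ± 0.06, adjusted p = 0.0449, and with siEZH2 1 of 6, DYNC2H1 at -0.44 ± 0.13, adjusted p = 0.0174.

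The library kit does not mark strand, so reads of a member and of an overlapping antisense gene cannot be told apart. By GENCODE v29 the pseudogene WTAPP1 runs antisense to MMP1 and shares 150 exonic bases with it, and 32 with MMP3. WTAPP1 had normalized counts of 232 and 233 in adherent cells, 671 and 619 at 16 h and 159 and 165 at 5 d, the same order of groups as MMP1. Its log2 changes were 1.47 ± 0.12, adjusted p = 1.55e-13, at 16 h and -0.52 ± 0.12, adjusted p = 0.0003, at 5 d. SLC12A5-AS1 shares 430 exonic bases with MMP9 on the other strand, and CEP295NL shares 198 with TIMP2 on the same strand. SYN1 and SYN3, which hold TIMP1 and TIMP3 within their span on the other strand, share no exonic base with them in this annotation.

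Members with a mean of at least 10 in every table were correlated over all 19 libraries, centred within each table. MMP14 and TIMP1 ran opposite to TIMP2 and TIMP3, and MMP1 followed neither pair closely. As descriptions over libraries that share groups and tables, Pearson's r was 0.95 between MMP14 and TIMP1, -0.93 between MMP14 and TIMP3, -0.92 between TIMP1 and TIMP3, 0.76 between TIMP2 and TIMP3 and 0.43 between MMP1 and MMP14. Among 12568 genes, the patterns most like MMP14 were those of ADAM8 (r = 0.99), APCDD1L (0.99) and NDRG1 (0.99). Those most like TIMP1 were TGFBI (0.99), FOS (0.99) and LBP (0.98), and those most like TIMP3 were CABLES1 (0.99), MATN2 (0.99) and DYSF (0.98). MMP1 was most like SLC2A1 (0.95), HSPA5 (0.95) and GJA1 (0.95), and TIMP2 most like PSTK (0.93), PINK1-AS (0.92) and ZBTB18 (0.92). The culture groups, which differ most, weigh heavily in these values. With siSCIRT 2 MMP14 and TIMP3 stood on the same side of siNC, at 0.25 ± 0.08 (not called) and 0.33 ± 0.07. The opposite patterns are therefore not read for the siRNA tables.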

How the data were processed

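RNA of 19 MDA-MB-231 libraries was extracted with TRI Reagent and made into libraries with the TruSeq RNA kit v2, per the labels' protocols. CASAVA 1.4, hg19, TopHat2 and Partek appear in the submitters' processing notes, without their roles. The counting program is not given in the sources used here. The culture and siSCIRT tables as deposited hold log2-scale values of the kind DESeq2's variance-stabilizing transform gives, and the siEZH2 table as deposited holds a linear signal, namely normalized counts. The transform was inverted exactly, and whole reads were recovered from all 3 tables (100% of values whole in each library, tolerance 0.05 reads). Groups came from the sample titles. In the siSCIRT table the columns of siSCIRT 1 were assigned by elimination and carry no replicate number.

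Each table was fitted as a whole with limma 3.58.1 (R 4.3.3) on log2(normalized count + 1), using trended and robust eBayes. The median prior degrees of freedom were 32.8 beside 3 residual ones in culture and 9.03 beside 6 in the siSCIRT table. In the siEZH2 table they were infinite beside 2. With siEZH2 the spread behind the p-value of a typical gene therefore came wholly from the other genes, not from its own libraries. In culture it came mostly from other genes, and in the siSCIRT table more from them than from the gene itself. Genes had to reach a mean of 10 or more. Adjusted p is Benjamini-Hochberg over all genes tested, two-sided, called under 0.05. A fold change on this scale understates the change of low genes. The responses were compared in 1 fit over 13 libraries, on 15369 genes. The fit was also run on simulated counts, with the spread estimated from these same libraries. That run therefore does not check how the spread is modelled, and no result here rests on it. Alternatives were quantile normalization, a pseudocount of 8, a minimum mean of 50 or none, a replicate block, eBayes without trend and not robust, a fit of the compared groups only, edgeR 4.0.16 (quasi-likelihood, TMM) and DESeq2 1.42.0 on recovered reads, and leaving out each library. Promoters came from the RefSeq table, and overlaps and exon lengths from GENCODE v29 (GRCh38), by gene symbol. The build of the files is hg19, so no coordinates of the files are printed. All 10 members are named, and from each list up to 4 genes with the smallest adjusted p at 16 h (culture) or for the siSCIRT mean (siRNA), with exceptions stated, and a few genes that this rule names are not reported here. The members and lists were chosen with earlier results of these data known.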

Additional observations from a re-analysis of the deposited data

Results flagged for a closer look

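In 4 members the response to siEZH2 differed from the mean response to the siSCIRT siRNAs by a test of the difference itself (limma, 13 libraries). The difference on the log2 scale was 2.13 for MMP3, -1.01 for TIMP2, -0.65 for TIMP3 and -1.09 for MMP13. The adjusted p-values were 5.49e-05, 7.94e-06, 0.000403 and 0.021, and 15% of all genes passed the same test. The siEZH2 and siSCIRT tables were normalized separately and have their own siNC libraries, so effects of the siRNA and of the table cannot be told apart.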

How the results depend on the processing

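Of 1135 member values recomputed under an alternative, 1089 kept their direction and side of the threshold, 24 lost their call, 21 gained one and 1 reversed, namely TIMP2 between 5 d and 16 h spheres (0.20 with quantile normalization). The culture counts of called members stayed within 1.5 times of 5 in every alternative run. With siSCIRT 1 the count of 1 became 0 with quantile normalization, eBayes without trend and not robust, edgeR and only the compared groups, 2 with DESeq2, and 0 to 2 when 1 library was left out. With siSCIRT 2 the count of 2 became 1 to 3 when 1 library was left out, and for the mean of both it became 1 to 4. The siEZH2 count of 3 became 0 without the filter and 0 with eBayes without trend and not robust.

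Over whole tables, calls moved by over 1.5 times in the siRNA comparisons. With siSCIRT 1, 1693 genes became 1009 with eBayes without trend and not robust, and as few as 886 with 1 library left out. With siSCIRT 2, 1584 became 870 and as few as 769, and the mean went from 2390 to as few as 1242. Between the siSCIRT siRNAs 0 became 2 without the filter, 6 with DESeq2, 1 with only the compared groups and 1 without siNC replicate 2. With siEZH2, 1082 became 0 without the filter and 0 with eBayes without trend and not robust, 678 with DESeq2, 532 with the block and as few as 339 with 1 library left out, and the difference of responses went from 2309 to as few as 1491. The cause was not tested.

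The labels do not say what a replicate number marks. Deviations of same-numbered libraries correlated at -0.01 to 0.02 in culture, 0.21, 0.12 and 0.06 between siSCIRT 2 and siNC, where each library correlated best with its own number, and -0.09 in the siEZH2 table, and the third siSCIRT 2 pair was under 0.1, so the numbers were not taken as pairs and the order by own number is only a hint from the data. With the replicate number as a block, siSCIRT 2 against siNC gave 4 called members and 2642 genes in place of 2 and 1584. No paired analysis was possible for siSCIRT 1, the siSCIRT mean, the siRNA against siRNA comparison and the difference of responses because the siSCIRT 1 columns carry no numbers. Depth limits MMP3, MMP9, MMP10 and MMP13 in culture and MMP7 and MMP9 with siEZH2. The limit of 3 reads given for a count of 0 covers counting error only.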

Other observations

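WTAPP1, antisense to MMP1, gave a very different share of reads in the tables. Its reads were 19.3% to 36.3% of the MMP1 reads in the 6 culture libraries and 0.0448% to 0.0842% in the 13 siRNA libraries. MMP1 itself had 48.3 to 266 RPM (reads per 1000000 library reads) in the culture libraries, 1180.3 to 2370 in the siSCIRT libraries and 611 to 897 in the siEZH2 libraries, and WTAPP1 had 17.1 to 62.5 in culture and 0.346 to 1.15 in the siRNA libraries. The tables were normalized separately and hold no shared sample, so this contrast has no test.

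Within the siSCIRT table each of the 7 metalloproteinases was lowest among the siNC libraries in replicate 3, from MMP14 at 90404 to MMP7 at 17.7, and so was TIMP1 at 43101, while TIMP2 and TIMP3 lay between the other 2 there. This library has the highest read total of the table, 62218847. MMP2, whose proform MMP14 and TIMP2 activate, had mean normalized counts of 2.65 with siNC in the siSCIRT table and 5.14 in the siEZH2 table.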
